A study of Mus musculus with 4 samples.

Results

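The 31 genes described here are markers of astrocytes, the star-shaped glia of the brain, given as a list of gene names. All 31 had a count in each of the 4 deposited tables, which list 49993 genes. They fall into 22 identity genes, which mark astrocytes in the healthy brain, and 9 genes grouped as reactive. Transcripts of most of the 9 are known to increase in astrocytes around injury or amyloid plaques. Mt3 is grouped here with the other metallothioneins. The libraries were bulk RNA-seq of brain cells from 10-month-old mice, isolated by magnetic sorting for CD11b, a surface protein of microglia and other myeloid cells. The AD group (n = 2 libraries) carried APP/PS1 and intact asrij (APP/PS1+ asrij+/+), and the AD/KO group (n = 2 libraries) carried APP/PS1 and a constitutive deletion of asrij (APP/PS1+ asrij-/-). Both groups therefore share the amyloid transgenes, and no group without them was analysed here. The labels give neither the promoters of the transgenes nor whether a library is 1 animal or a pool, so that p-values measure the spread between these libraries, which may be in part technical.

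Astrocytes clear glutamate from synapses, buffer water and potassium, feed neurons and wrap blood vessels. Their identity genes encode the transporters, channels, junction proteins and enzymes that do this work. On injury they become reactive, with more intermediate filament protein, acute-phase proteins and metallothioneins. CD11b is not a surface protein of astrocytes.

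The libraries held from 13102622 to 19810076 counts. Levels below are CPM, which are depth-normalised counts with library sizes adjusted by TMM (trimmed mean of M values), unless a length is named. Ociad1, the mouse gene for asrij, was at 50.2 and 63.4 CPM in AD and at 38.9 and 32.1 CPM in AD/KO, so that its transcript was lower but still present, and every direction here is a difference between libraries as labelled. The 18 microglial markers were found in every library and averaged 481 and 365 CPM per kilobase of exon in AD replicates 1 and 2. They averaged 520 and 158 CPM per kilobase in AD/KO replicates 1 and 2. The 22 astrocyte identity genes averaged 30.4 and 62.9 CPM per kilobase in the AD libraries, and 77.3 and 171 in the AD/KO libraries. In AD/KO replicate 2 the mean level per kilobase of the astrocyte genes was thus as high as that of the microglial markers, and this library had the lowest microglial level of the 4. The astrocyte mean leaned on Glul and Slc1a2, which over the 4 libraries averaged 592 and 310 CPM per kilobase, against 3.77 for the lowest, Cldn10. In bulk samples, more astrocytes and more RNA per astrocyte cannot be told apart.

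Markers of other cell types differed between the libraries as well. The 16 neuronal markers (including Meg3, Camk2a and Map2) summed to 946 and 3274 CPM in AD and to 3367 and 9529 CPM in AD/KO. The 13 oligodendrocyte markers, led by the myelin gene Mbp, summed to 1704 and 2766 CPM in AD and to 4010 and 8689 CPM in AD/KO. The 11 neutrophil markers, among them Ngp and S100a9, stood at 4552 CPM in AD replicate 2 and between 336 and 529 CPM in the other 3 libraries. The 8 monocyte markers summed to 208 and 649 CPM in AD and to 90.3 and 141 CPM in AD/KO. None of these neuronal, oligodendrocyte, neutrophil or monocyte markers was at 0 in any library. Some ependymal and choroid plexus markers (Ccdc153, Tmem212, Dynlrb2 and Folr1) and lymphocyte markers (Cd3e, Cd3g, Nkg7 and Ncr1) were at 0 in at least 1 library. The part of these cell types in the results below was not tested.

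**Figure D1:**
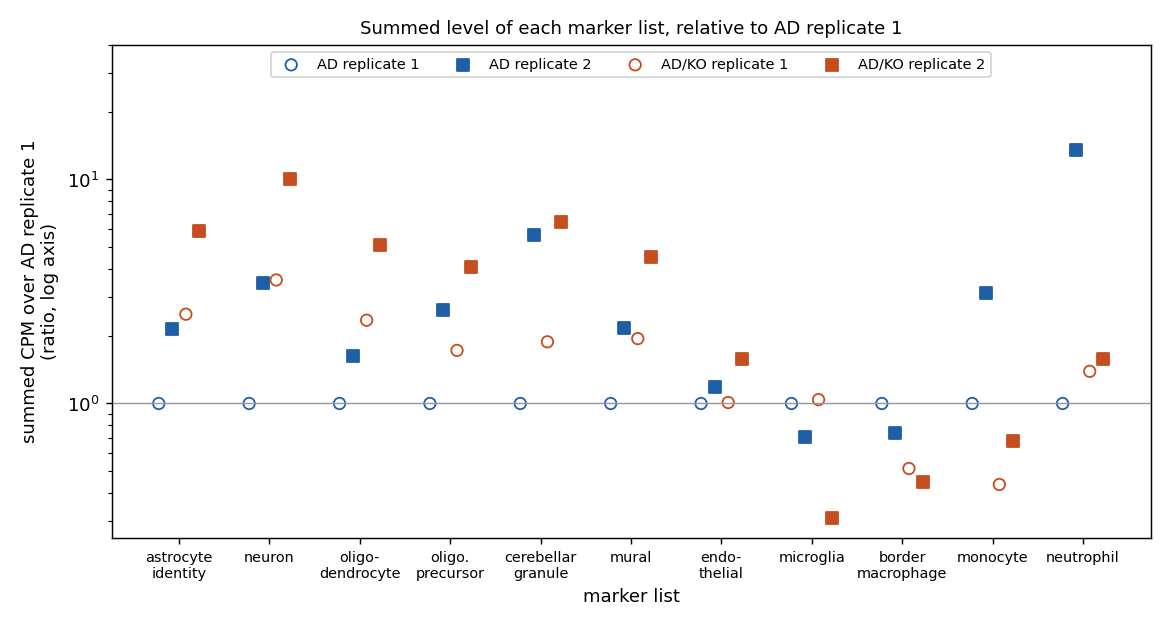
Summed CPM of each marker list in each library (points) as a ratio to AD replicate 1, on a log axis, with open circles for replicate 1, filled squares for replicate 2, blue for AD and orange for AD/KO. The ratio of the astrocyte sum is 2.15 in AD replicate 2, then 2.50 and 5.87 in AD/KO replicates 1 and 2, while the neutrophil sum stands apart at 13.5 in AD replicate 2.

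Each of the 22 identity genes had its 2 highest levels in the AD/KO libraries, with log2 fold changes from 1.10 (Glul) to 1.84 (Mlc1) and a median of 1.60. The median over all 21439 genes tested was −0.05. The median of the 16 neuronal markers was 1.56, near that of the identity genes, and that of the 13 oligodendrocyte markers was 0.33. All 16 neuronal markers were higher in AD/KO, beside 47.2% of all genes tested, and 6 of them did not overlap. The groups did not overlap, with AD/KO higher, in 20.3% of all genes tested. By edgeR's quasi-likelihood test, 0 of the 22 had an adjusted p under 0.05 after Benjamini-Hochberg adjustment over all genes, where 0% of all genes tested passed (smallest adjusted p 0.680). At an unadjusted p under 0.05, 5 of the 22 were higher (Mlc1, Acsbg1, Fgfr3, Gja1 and Hepacam), beside 2.7% of all genes. With 2 libraries against 2, an exact two-sided permutation test of a single value cannot go below 0.333. Scaled to the microglial markers instead of by TMM, the median was 2.66, but 16 of the 22 overlapped between the groups and 6 did not (Mlc1, Clu, Slc7a10, Fgfr3, Ndrg2 and Acsbg1). On that scale 9.83% of all genes tested were higher without overlap, and the median of all genes was 0.79. Without AD replicate 2 the median was 2.48, without AD replicate 1 it was 1.05, and without AD/KO replicate 2 it was 0.89.

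The order of the 4 libraries was the same in all 22 identity genes: AD replicate 1, AD replicate 2, AD/KO replicate 1, AD/KO replicate 2. The summed neuronal and oligodendrocyte markers had this order too, so that it is not particular to astrocyte genes. The larger steps lay inside the groups. AD replicate 2 exceeded AD replicate 1 by a median of 2.48-fold (1.52 for Slc1a3 to 3.35 for Ntsr2), and AD/KO replicate 2 exceeded AD/KO replicate 1 by a median of 2.28-fold (1.88 for Glul to 2.66 for Slc1a2). Between the groups, the nearest libraries were AD/KO replicate 1 and AD replicate 2, which differed by a median of 1.30-fold, from 1.01 for Aqp4 to 1.55 for Mlc1. For Aqp4, Aldh1l1, Slc4a4 and Sox9 the 95% exact interval of that ratio held 1, and for the other 18 identity genes it lay above 1. These intervals compare 2 libraries and cover counting error only.

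**Figure D2:**
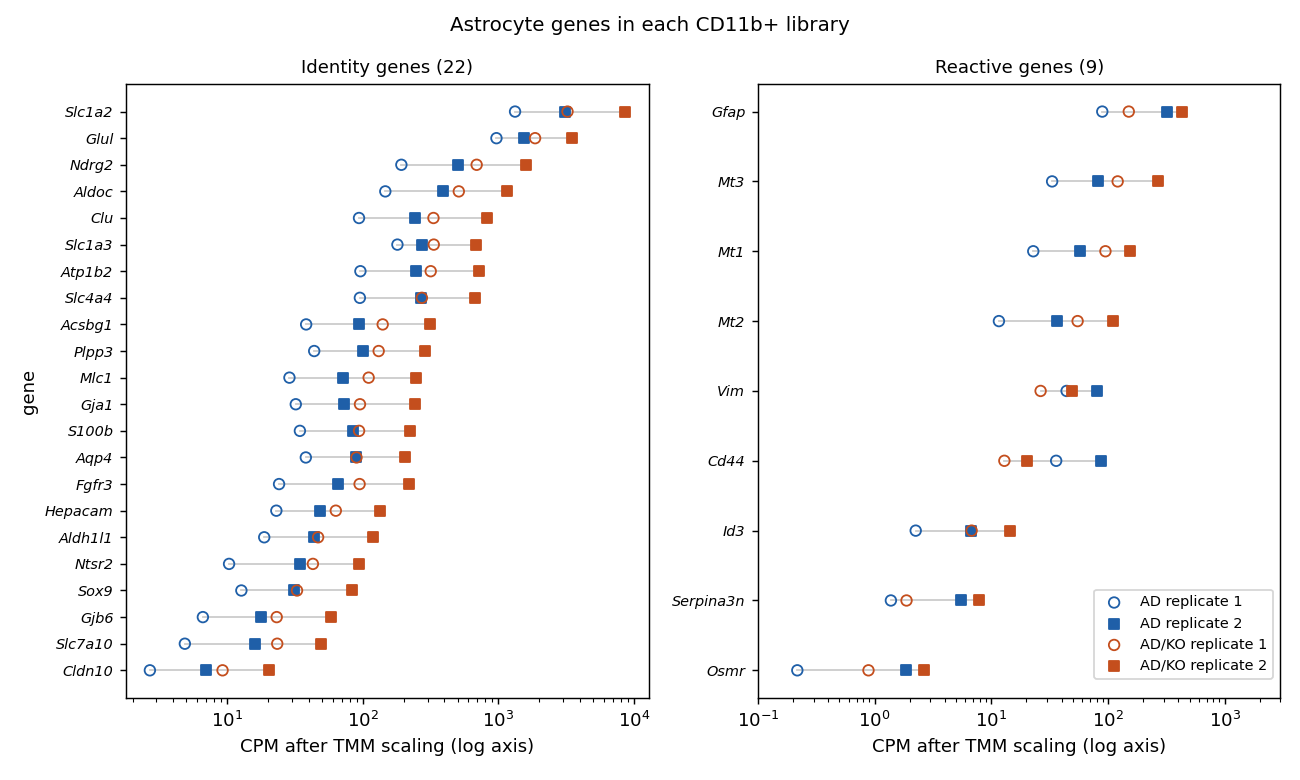
CPM (log axis) of the 22 identity genes and the 9 reactive genes in each library, 1 point per library, sorted by mean CPM within each panel. In the left panel every gene shows the same order of libraries, and in the right panel Cd44 has both AD/KO libraries to the left of both AD libraries.

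The glutamate and amino acid genes included the transcripts with the highest level per length. Glul (chromosome 1, 153899929 to 153909723), glutamine synthetase, which turns glutamate into glutamine, led the identity genes at 592 CPM per kilobase. Its level was 968 and 1533 CPM in AD and 1865 and 3499 CPM in AD/KO, which gave a log2 fold change of 1.10 (SE 0.69). Slc1a2 (chromosome 2, 102658239 to 102790784), the main glutamate transporter of the forebrain, was next at 310 CPM per kilobase. It stood at 1327 and 3108 CPM in AD and at 3235 and 8593 CPM in AD/KO. The first AD/KO library was thus within 1.04-fold of the second AD library, and the log2 fold change was 1.42 (SE 0.97). Slc1a3 (chromosome 15, 8634124 to 8710807), the other astrocyte glutamate transporter, was at 180 and 273 CPM in AD and at 334 and 687 CPM in AD/KO. Slc7a10, a transporter of small neutral amino acids, had the widest span of the identity genes, from 4.86 and 16.0 CPM in AD to 23.4 and 48.8 CPM in AD/KO. Its highest library was 10.0-fold above its lowest, against 3.62-fold for Glul. Its exons share 377 bases with Lrp3 on the other strand, a gene with 180 to 2149 reads in these libraries. The transcript of Glul matches the pseudogene Glns-ps1 at 96.8% identity over 1126 bases (75 to 535 reads there), and short stretches of Slc1a2, Slc1a3 and Gja1 match other genes, so that their counts carry this uncertainty.

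The genes for water, ion and bicarbonate handling had log2 fold changes from 1.21 to 1.84. Aqp4, the water channel of astrocyte endfeet, was at 38.0 and 88.8 CPM in AD and at 89.8 and 204 CPM in AD/KO. Its groups were separated only by the difference between 88.8 and 89.8 CPM. Mlc1 (chromosome 15, 88955884 to 88982693), a membrane protein of endfeet that is mutated in a leukodystrophy, was at 28.7 and 71.2 CPM in AD and at 110 and 248 CPM in AD/KO. It had the largest log2 fold change of the 22, 1.84 (SE 0.64), with an unadjusted p of 0.0347 and an adjusted p of 0.680 by edgeR's quasi-likelihood test. Hepacam, the adhesion protein that binds Mlc1, was at 23.01 and 48.4 CPM in AD and at 63.2 and 135 CPM in AD/KO. Slc4a4, a sodium bicarbonate cotransporter, and Atp1b2, a sodium pump subunit, had log2 fold changes of 1.39 (SE 0.72) and 1.61 (SE 0.68).

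Of the junction genes, Gja1 (chromosome 10, 56377300 to 56390419) encodes connexin 43, the main gap junction protein of astrocytes. Gja1 stood at 32.0 and 72.6 CPM in AD and at 95.2 and 244 CPM in AD/KO. Gjb6, connexin 30, was at 6.60 and 17.8 CPM in AD and at 23.1 and 58.2 CPM in AD/KO. The ratio of AD/KO replicate 1 to AD replicate 2 was 1.31 for Gja1 and 1.30 for Gjb6, so that both connexins showed the same step. Cldn10, a claudin, had the lowest level per length of the identity genes at 3.77 CPM per kilobase, from 2.69 CPM in AD replicate 1 to 20.2 CPM in AD/KO replicate 2.

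The metabolic genes were Aldoc, the aldolase of the brain, Aldh1l1, a folate enzyme used as a general astrocyte marker, Acsbg1, which activates long fatty acids, Plpp3, a lipid phosphatase, and Ndrg2. Their log2 fold changes ran from 1.41 (Aldh1l1) to 1.78 (Acsbg1). Aldoc was at 146 and 390 CPM in AD and at 510 and 1161 CPM in AD/KO. Aldh1l1 was at 18.7 and 43.5 CPM in AD and at 46.8 and 119 CPM in AD/KO. The second AD and first AD/KO libraries were again neighbours, 1.31-fold apart for Aldoc and 1.08-fold for Aldh1l1. Ndrg2 followed Glul and Slc1a2 in level per length, at 219 CPM per kilobase.

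Among receptors, secreted proteins and regulators, Fgfr3, a fibroblast growth factor receptor, was at 24.1 and 65.4 CPM in AD and at 94.6 and 218 CPM in AD/KO. Clu, the secreted chaperone clusterin, whose human gene is a risk locus for Alzheimer's disease, was at 93.7 and 243 CPM in AD and at 332 and 831 CPM in AD/KO. For both, AD/KO replicate 1 lay above AD replicate 2, by 1.45-fold for Fgfr3 and 1.36-fold for Clu. Sox9, a transcription factor of astrocyte fate, was at 12.7 and 31.2 CPM in AD and at 32.7 and 82.6 CPM in AD/KO. Ntsr2, a neurotensin receptor, and S100b, a calcium-binding protein, had log2 fold changes of 1.60 (SE 0.71) and 1.40 (SE 0.64).

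**Figure D3:**
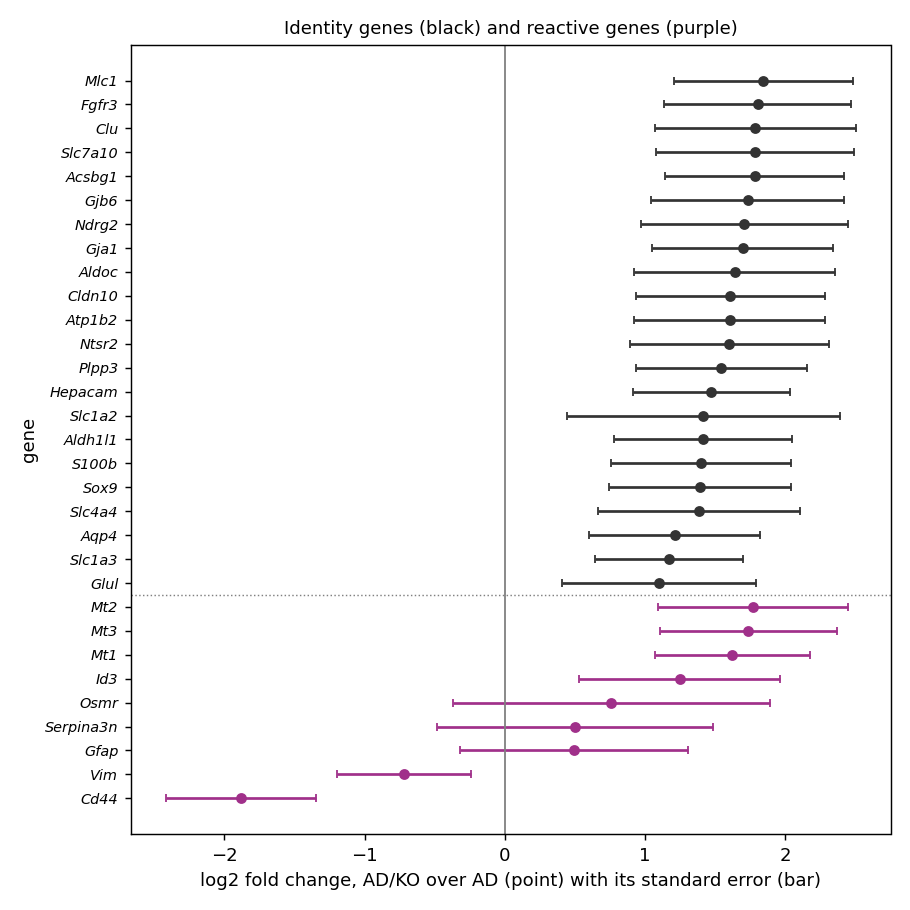
Log2 fold change of AD/KO over AD for each of the 31 genes (points) with its standard error (bars), identity genes in black above the dotted line and reactive genes in purple below it. The 22 identity genes lie between 1.10 and 1.84, and the reactive genes run from −1.88 (Cd44) to 1.77 (Mt2).

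The identity genes kept nearly fixed proportions to each other. Dividing each gene by the geometric mean CPM of the 22 in the same library removed most of the difference between libraries, as the median gene then ranged over 0.29 on the log2 scale across the 4 libraries. Plpp3 varied least, over 0.09, and stood at 99.9%, 94.0%, 97.5% and 93.8% of the identity level in AD replicates 1 and 2 and AD/KO replicates 1 and 2. Glul and Slc1a3 varied most, over 0.96 and 0.88. Glul was at 2208% of the identity level in AD replicate 1 and at 1433%, 1390% and 1133% in AD replicate 2 and AD/KO replicates 1 and 2. Slc1a3 was at 411% in AD replicate 1 and at 255%, 249% and 222% in the same order. Both were thus highest, relative to the other identity genes, in the library with the lowest astrocyte level. Slc7a10 did the opposite, at 11.1% in AD replicate 1 and between 14.99% and 17.4% in the other 3 libraries. Since these genes set the scale, the proportions describe the list and are not a comparison of the groups.

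The ratio of the identity genes to the markers of other cell types differed between libraries. The summed CPM of the identity genes was 3.61 times that of the neuronal markers in AD replicate 1, and 2.24, 2.54 and 2.10 times in AD replicate 2 and AD/KO replicates 1 and 2. Against the oligodendrocyte markers the ratios were 2.01, 2.65, 2.13 and 2.31 in the same order. Against the microglial markers they were 0.142, 0.431, 0.341 and 2.68. The astrocyte sum thus exceeded the microglial sum in AD/KO replicate 2 and in none of the other 3 libraries. Slc1a2 alone held 8593 of the 20047 CPM of the astrocyte sum in AD/KO replicate 2, where the microglial sum was 7475 CPM. The sums cover 22 identity genes and 18 microglial markers.

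The 9 reactive genes went in different directions. Their median log2 fold change was 0.76, with 7 higher and 2 lower in AD/KO, and 0 passed the adjusted threshold. The 3 metallothioneins and Id3 were higher in both AD/KO libraries, Cd44 was lower in both, and the other 4 overlapped. Of all genes tested, 20.3% were higher and 21.7% lower without overlap. Mt1, Mt2 and Mt3 were higher and Cd44 was lower at an unadjusted p under 0.05, beside 2.7% of all genes higher and 2.3% lower. The median was −0.08 without AD replicate 1 and −0.22 without AD/KO replicate 2, so that its direction rested on each of these libraries, and it was 2.30 without AD replicate 2. Scaled to the microglial markers, the 3 metallothioneins were higher without overlap, beside 9.83% of all genes, and the other 6 overlapped, Cd44 included (6.9% of all genes were lower without overlap).

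Gfap (chromosome 11, 102887336 to 102897200) encodes the glial fibrillary acidic protein, the intermediate filament by which reactive astrocytes are usually recognised. It was at 89.2 and 323 CPM in AD and at 150 and 429 CPM in AD/KO. The replicate 2 libraries of both groups were high and the replicate 1 libraries low, and the groups overlapped. The log2 fold change was 0.49 (SE 0.81), with an adjusted p of 0.817 by edgeR's quasi-likelihood test. It was −0.18 without AD replicate 1 and −0.44 without AD/KO replicate 2. In these fits the groups held unequal replicate numbers, and the sign depended on the libraries kept. For libraries of the same number, AD/KO exceeded AD by 1.69-fold (replicate 1) and 1.33-fold (replicate 2). Whether a number stands for anything shared is not given. Vim (chromosome 2, 13574311 to 13582826), the intermediate filament protein vimentin, is also made by leukocytes and vascular cells. Its level was 44.1 and 81.1 CPM in AD and 26.4 and 49.5 CPM in AD/KO, with overlap between AD replicate 1 and AD/KO replicate 2. The log2 fold change of Vim was −0.72 (SE 0.48). It was 0.32 when scaled to the microglial markers, where the median of all genes tested was 0.79.

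Serpina3n (chromosome 12, 104406646 to 104414334), a secreted protease inhibitor of the acute-phase response, was at 1.38 and 5.47 CPM in AD and at 1.88 and 7.87 CPM in AD/KO. It had the same order of libraries as Gfap, AD replicate 1, AD/KO replicate 1, AD replicate 2, AD/KO replicate 2, as did Osmr, the receptor for oncostatin M. Osmr had 3 and 30 reads in AD and 17 and 49 reads in AD/KO, the lowest counts of the 31 genes, so that it is measured poorly at this depth. The log2 fold changes were 0.50 (SE 0.99) for Serpina3n and 0.76 (SE 1.13) for Osmr, and both turned negative without AD replicate 1 (−0.19 and −0.08) or without AD/KO replicate 2 (−0.86 and −0.22).

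Cd44 (chromosome 2, 102811141 to 102901669), the hyaluronan receptor, is made by reactive astrocytes and by leukocytes. It was at 35.9 and 86.8 CPM in AD and at 12.9 and 20.4 CPM in AD/KO, so that its 2 lowest libraries were those of AD/KO. The log2 fold change was −1.88 (SE 0.54), the most negative of the 31 genes, with an unadjusted p of 0.0178 and an adjusted p of 0.680 by edgeR's quasi-likelihood test. It was −1.05 without AD replicate 2 and −2.40 without AD replicate 1. Scaled to the microglial markers it was −0.92, where the median of all genes tested was 0.79. The monocyte markers, among them Fn1 at 103 and 151 CPM in AD and 31.5 and 53.9 CPM in AD/KO, were also lower in AD/KO. Of the 8 monocyte markers, 6 were lower in both AD/KO libraries, beside 21.7% of all genes tested. So were 5 of 8 markers of brain border macrophages, where 1 of the 8 had a positive log2 fold change. All 10 neutrophil markers tested had negative log2 fold changes, 1 of them without overlap. The part of these cell types in the Cd44 difference was not tested. Id3, a regulator that responds to bone morphogenetic proteins, had the library order of the identity genes, at 2.25 and 6.70 CPM in AD and at 6.78 and 14.5 CPM in AD/KO.

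The metallothioneins are small cysteine-rich proteins that bind zinc and copper. Mt1 and Mt2 are induced by metals, glucocorticoids and cytokines, whereas Mt3 is a brain form made without such induction in astrocytes and neurons. Their genes lie side by side on chromosome 8, Mt3 at 94152607 to 94154148, Mt2 at 94172618 to 94173567 and Mt1 at 94178883 to 94180327. Mt1 was at 22.9 and 57.6 CPM in AD and at 94.9 and 153 CPM in AD/KO. Mt2 was at 11.6 and 36.8 CPM in AD and at 54.8 and 110 CPM in AD/KO, and Mt3 at 33.2 and 82.6 CPM in AD and at 121 and 265 CPM in AD/KO. All 3 had the library order of the identity genes. The step from AD replicate 2 to AD/KO replicate 1 was 1.65-fold for Mt1, 1.49-fold for Mt2 and 1.46-fold for Mt3, against the median of 1.30-fold over the identity genes. Their log2 fold changes were 1.62 (SE 0.55), 1.77 (SE 0.68) and 1.74 (SE 0.63), each with an adjusted p of 0.680 by edgeR's quasi-likelihood test. Part of the exons of Mt2 is overlapped by Gm45774 on the other strand, and use of strand in counting is not given in the sources used here.

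The metallothioneins shared the library order of the identity genes, as did the summed neuronal and oligodendrocyte markers, and Gfap did not. The promoters of the metallothioneins and Gfap are shown side by side. Each window runs from 250 bases before to 50 bases after a transcript start in RefSeq on GRCm38.p6, 5′ to 3′ on the gene's strand. For Mt1 that start is at 94179089, inside the span given for the gene, and for the other 3 it is the gene's first base. They lie at chr8:94178839-94179138, plus strand for Mt1, chr8:94172368-94172667, plus strand for Mt2, chr8:94152357-94152656, plus strand for Mt3 and chr11:102897151-102897450, minus strand for Gfap. Capitals mark matches on either strand, in the metallothioneins to TGCACNC or TGCGCNC (the core of the metal response element) and in Gfap to TTCNNNGAA (the core of STAT binding sites).
Mt1 promoter: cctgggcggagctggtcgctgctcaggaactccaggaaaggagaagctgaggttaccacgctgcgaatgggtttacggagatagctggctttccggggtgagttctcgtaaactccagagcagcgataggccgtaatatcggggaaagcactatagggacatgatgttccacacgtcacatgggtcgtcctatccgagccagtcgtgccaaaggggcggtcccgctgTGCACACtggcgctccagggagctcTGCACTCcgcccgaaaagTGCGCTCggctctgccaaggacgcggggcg
Mt2 promoter: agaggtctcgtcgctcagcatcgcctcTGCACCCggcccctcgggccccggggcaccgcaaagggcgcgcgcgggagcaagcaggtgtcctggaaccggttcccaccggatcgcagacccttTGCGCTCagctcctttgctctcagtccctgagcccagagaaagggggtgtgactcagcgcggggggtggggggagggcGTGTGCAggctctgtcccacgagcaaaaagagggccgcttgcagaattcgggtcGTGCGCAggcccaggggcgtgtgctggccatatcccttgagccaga
Mt3 promoter: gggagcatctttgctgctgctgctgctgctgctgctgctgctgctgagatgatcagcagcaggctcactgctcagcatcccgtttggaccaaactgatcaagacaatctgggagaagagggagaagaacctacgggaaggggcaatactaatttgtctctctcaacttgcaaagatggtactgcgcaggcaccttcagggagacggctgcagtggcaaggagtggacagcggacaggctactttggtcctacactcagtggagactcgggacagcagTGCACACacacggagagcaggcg
Gfap promoter: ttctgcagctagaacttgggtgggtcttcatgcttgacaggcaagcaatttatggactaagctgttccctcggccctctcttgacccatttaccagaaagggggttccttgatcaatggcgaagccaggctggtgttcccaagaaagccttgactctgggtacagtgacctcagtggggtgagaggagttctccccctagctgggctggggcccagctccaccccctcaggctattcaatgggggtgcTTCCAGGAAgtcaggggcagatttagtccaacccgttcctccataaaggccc

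The Mt1 window held 3 matches to the metal response core, the Mt2 window 4 and the Mt3 window 1. The windows of Cd44 and Id3 held 2 each, and those of the other 4 reactive genes held none. Of all 32851 promoter windows of this length, 25.7% held at least 1 match and 0.517% held 4 or more. Whether the number of matches bears on the levels of the metallothioneins was not tested. The 1 match to the STAT core in Gfap began 2 bases before the start, and 8.30% of all windows held such a match. Of the 9 reactive genes, Gfap was the only one with a match to the STAT core in its window. Among the identity genes, 4 of 24 windows (from 18 genes) held a STAT match, those of Acsbg1, Ntsr2, Slc1a3 and, with 2 matches, Aldoc. A match to the metal response core was found in 5 of the 24. RefSeq windows were found for 27 of the 31 genes, all but Aqp4, Clu, Sox9 and Atp1b2. A match describes these letters only, and is not a binding site.

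Set against the identity genes of the same library, the reactive genes took different courses. The identity genes served here as the scale, which asks how much of each reactive transcript was present for a given astrocyte signal. On this scale 5 of the 9 had their 2 lowest values in AD/KO (Gfap, Vim, Serpina3n, Cd44 and Id3), where 69.8% of all genes tested were lower without overlap. Mt2 and Mt3 were higher without overlap, beside 3.34% of all genes. Of the 22 identity genes, which set this scale, 10 were also higher without overlap, 7 were lower and 5 overlapped. On this scale all genes tested had a median of −1.61.

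Relative to the identity level, Gfap was at 204% and 302% in AD and at 112% and 139% in AD/KO. Both AD/KO libraries thus had less Gfap for their astrocyte signal, and with this scaling the log2 fold change was −1.01 (SE 0.90, adjusted p of 0.386 by edgeR's quasi-likelihood test). Its direction was the reverse of that under TMM scaling, and it lay above the median of all genes on this scale. Serpina3n was at 3.15% and 5.11% of the identity level in AD and at 1.40% and 2.55% in AD/KO, with a log2 fold change of −1.07 (SE 0.85). Vim was at 101% and 75.8% in AD and at 19.7% and 16.0% in AD/KO, and Cd44 at 82.0% and 81.1% in AD and at 9.64% and 6.59% in AD/KO. Among the 9 genes, Cd44 and Vim had the most negative log2 fold changes on this scale, −3.33 (SE 0.85) and −2.30 (SE 0.82), both with an adjusted p of 0.282. Osmr, at 0.50% and 1.72% in AD and at 0.66% and 0.86% in AD/KO, overlapped.

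Of the metallothioneins, Mt3 varied least relative to the identity level, over 0.25 on the log2 scale, against 0.51 for Mt1 and 0.63 for Mt2. Mt3 was at 75.7% and 77.2% of it in AD and at 90.1% and 85.9% in AD/KO. Mt1 was at 52.2% and 53.8% in AD and at 70.8% and 49.5% in AD/KO, and Mt2 at 26.5% and 34.4% in AD and at 40.9% and 35.7% in AD/KO. The scaled log2 fold changes were 0.18 (SE 0.79) for Mt1, 0.33 (SE 0.77) for Mt2 and 0.20 (SE 0.81) for Mt3, each within its standard error of 0.

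**Figure D4:**
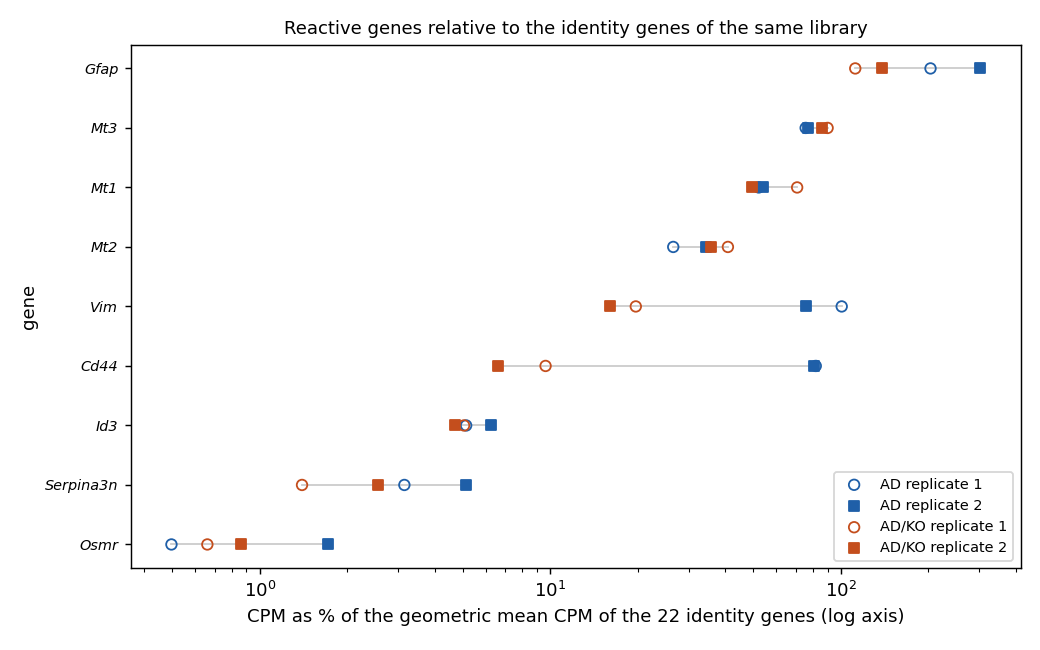
CPM of each reactive gene as a percentage of the geometric mean CPM of the 22 identity genes in the same library (log axis), 1 point per library. Gfap, Vim, Serpina3n, Cd44 and Id3 have both AD/KO libraries to the left of both AD libraries, and Mt2 and Mt3 have both to the right.

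Genes of cerebellar neurons are given here beside Gfap. A list of 5 genes of cerebellar granule neurons, chosen after the values were seen (Gabra6, Cbln1, Cbln3, Fat2 and Neurod1), summed to 112 and 631 CPM in AD and to 211 and 725 CPM in AD/KO. As a share of the summed identity genes this was 3.28% and 8.60% in AD and 2.47% and 3.62% in AD/KO. Gfap and these genes were thus both highest for their astrocyte signal in AD replicate 2 and lowest in AD/KO replicate 1. Between these extremes their order differed. Gfap was higher in AD replicate 1 (204% of the identity level) than in AD/KO replicate 2 (139%), whereas the granule share was lower there (3.28% against 3.62%). Grin2c, a glutamate receptor subunit of astrocytes and of cerebellar granule cells, also singled out after its values were seen, was at 136% and 333% of the identity level in AD and at 90.2% and 140% in AD/KO. Whether the brain regions in each preparation bear on the Gfap values was not tested.

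A wider list of 40 astrocyte genes outside the 31, chosen with earlier results of these data known, had a similar median. All 40 were higher in AD/KO, beside 47.2% of all genes tested, with a median log2 fold change of 1.46. Of the 40, 28 did not overlap, beside 20.3% of all genes tested. The 3 with the smallest unadjusted p were Gpr37l1, a receptor of astrocytes (log2 fold change 1.87), Chrdl1, a secreted antagonist of bone morphogenetic proteins (1.63), and Elovl2, a fatty acid elongase (1.82), and 0 of the 40 passed the adjusted threshold. Per kilobase the highest were Sparcl1, a secreted synapse-promoting protein, at 375 CPM and Bcan, the proteoglycan brevican, at 71.4 CPM. Sparcl1 was at 297 and 781 CPM in AD and at 966 and 2364 CPM in AD/KO. Nfia, a transcription factor of glia named here after its values were seen, spanned only 1.53-fold across the libraries, against a median of 7.11-fold for the list.

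Of a list of 40 other genes linked to reactive astrocytes, 39 were in the tables and 33 were tested. In AD/KO 13 of them were higher and 20 lower, the median log2 fold change was −0.37 (0.13 when scaled to the microglial markers), and 0 passed the adjusted threshold. On the microglial scale the median of all genes tested was 0.79. Without overlap, 4 were higher and 9 lower, beside 20.3% and 21.7% of all genes tested. The median was −0.77 without AD/KO replicate 1 and −0.10 without AD/KO replicate 2. Many of these transcripts are also made by microglia or other leukocytes, as are H2-D1, a class I antigen-presenting molecule, and Cd14, a lipopolysaccharide co-receptor, the pair with the highest level per kilobase. H2-D1 was at 215 and 189 CPM in AD and at 131 and 61.6 CPM in AD/KO, and Cd14 at 98.4 and 86.5 CPM in AD and at 122 and 27.3 CPM in AD/KO. H2-D1 was lower in both AD/KO libraries, whereas Cd14 was low in AD/KO replicate 2 alone, the library with the lowest microglial markers.

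The 3 genes of that list with the smallest unadjusted p were Cxcl10, an interferon-induced chemokine, Steap4, a metalloreductase, and Maob, an enzyme that breaks down amines and is abundant in astrocytes. Cxcl10 was at 1.52 and 2.27 CPM in AD and at 0.26 and 0.38 CPM in AD/KO, and Steap4 at 1.09 and 8.48 CPM in AD and at 0.21 and 0.27 CPM in AD/KO. Both were lower in AD/KO without overlap, on few reads. In AD/KO Cxcl10 had 5 and 7 reads and Steap4 4 and 5, so that both are limited by counting there. Maob had the library order of the identity genes, at 4.21 and 8.05 CPM in AD and at 12.1 and 27.5 CPM in AD/KO, with a log2 fold change of 1.69 (SE 0.59).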

How the data were processed

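RNA of CD11b+ cells was sequenced in bulk in 4 libraries, grouped by the genotype in their titles. The authors deposited whole-number counts per gene symbol, 1 table per library, not normalized. Total RNA was depleted of rRNA and made into stranded libraries, per the labels' protocols. The submitters' processing notes name HISAT2, SAMtools, featureCounts (Subread), FastQC and DESeq2 1.30.0, with build mm10. Counting settings, strand use, the treatment of reads matching several places and the annotation are not given in the sources used here. The tables each had 11 broken lines that held no count (columns without a sample, 0). Positions are from RefSeq for GRCm38.p6, the assembly of mm10, and exon lengths and overlaps from GENCODE release M21. Promoter sequences are from RefSeq on GRCm38.p6.

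Counts were tested with edgeR 4.0.16 in R 4.3.3, AD/KO against AD on all 4 libraries without covariates. Genes were kept by filterByExpr (minimum count 10, minimum total 15), scaled by TMM and tested by the quasi-likelihood F-test with Benjamini-Hochberg adjustment over 21439 genes at 0.05. The SE is the log2 fold change divided by the square root of F. Lists were described by counts and medians, with no test. Relative levels divide by the geometric mean CPM of the identity genes. Near-identical transcripts were searched with BLAST 2.17.0 at 95% identity over 100 bases or more. On simulated counts for 20808 genes with 200 changed by 3 on the log2 scale, 71.0% of changes were called, and 1.39% of calls were false. The simulation gave all genes the same dispersion and had no differences in cell content between libraries. Its changes were larger than those of any of the 31 genes, so that it does not give the power for them.

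The named genes were all 31 members, and of the 2 wider lists the 3 with the smallest unadjusted p and the 2 with the highest CPM per kilobase. Of each marker list, at most 3 genes of highest CPM were named. Members and lists were chosen with earlier results of these data known. Alternatives were DESeq2 1.42.0, its size factors in the edgeR fit, 2 other filters, the replicate number as a block, scaling to microglial markers or to identity genes, and leaving out each library. The median without Vim and Cd44 was added after the data were seen.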

Additional observations from a re-analysis of the deposited data

How the results depend on the processing

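All 220 values of the 22 identity genes under the alternatives were higher in AD/KO. The 22 genes shared the same order of libraries, with both AD/KO libraries highest, so that leaving out a library could hardly turn a direction. These values are not independent of each other. Of 319 values of the 31 genes under alternatives, 277 kept their direction and their side of the threshold, 31 passed it only there and 11 changed direction, of which 5 under the scalings to gene lists, which shift all genes together. Genes past an adjusted p of 0.05 numbered 0 (1072 unadjusted) by edgeR's quasi-likelihood test, and stayed 0 with DESeq2 size factors, both other filters and both scalings to gene lists. DESeq2's test called 90 genes (2325 unadjusted), with 0 of the 31 genes among them. The cause of these differences was not tested. With each library left out in turn, the count ran from 0 to 524, the identity median from 0.89 to 2.48 and the reactive median from −0.22 to 2.30. The count was 524 without AD replicate 2 and 48 without AD replicate 1. Where 1 library was left in a group, it was assumed to vary like the other group.

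The AD and AD/KO libraries share replicate numbers, but whether a number stands for anything shared is not given there. Deviations from the group mean correlated at 0.72 over genes between libraries of the same number. With the replicate number as a block, 4333 of the 21439 genes tested were called. Among them were 21 of the 22 identity genes (all but Glul) and 6 of the 9 reactive genes. Gfap, Serpina3n and Osmr were not called, at log2 fold changes of 0.58, 0.49 and 1.01. The identity and reactive medians were then 1.64 and 1.01.

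Scaling to the microglial markers moved the median of all genes to 0.79, the identity median to 2.66, the reactive median to 1.83, the wider astrocyte median to 2.58 and the wider reactive median to 0.13, and turned Vim to 0.32, still under the median of all genes. Scaling to the identity genes moved the reactive median to −0.60 and turned Gfap to −1.01, Serpina3n to −1.07, Osmr to −0.60 and Id3 to −0.23, and the median of all genes was then −1.61. The most negative value with a library left out was −0.44 for Gfap, −0.86 for Serpina3n and −0.22 for Osmr. Without AD replicate 1 they were −0.18, −0.19 and −0.08, and the highest values, without AD replicate 2, were 1.75, 1.87 and 3.04. The wider astrocyte median ran from 0.61 to 2.31 and the wider reactive median from −0.77 to −0.10. Without Vim and Cd44 the reactive median was 1.25. At this depth Osmr, with 3 reads in AD replicate 1, is limited by counting.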
